A study of Mus musculus with 99 samples.

Results

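The synaptic vesicle release machinery was described as 34 genes: 2 transporters that fill vesicles, 8 proteins of the vesicle itself, 7 calcium sensors, 4 SNARE proteins, 3 complexins, 8 proteins of the active zone and 2 proteins that take SNARE complexes apart. Membership was set by gene symbol, and 34 of 34 symbols were matched by Ensembl ID among the 37991 genes of the deposited count table. The study asked how 4 brain regions of mice differ after chronic social defeat stress, in which a mouse is repeatedly exposed to an aggressor, and after treatment with ketamine or imipramine. The nucleus accumbens, the prefrontal cortex, the basolateral amygdala and the ventral hippocampus were each sampled in 7 conditions. Controls, resilient mice and susceptible mice had received saline, and the 4 drug groups were susceptible mice given ketamine or imipramine and classed as responders or non-responders. Strain, sex, age, dose and time of dissection were not given in the labels used here, nor whether a mouse gave tissue for more than 1 region. Each region had 5 control libraries (4 in the ventral hippocampus), 4 of resilient mice, 3 of susceptible mice, 3 of ketamine responders, 3 of ketamine non-responders, 3 of imipramine responders and 4 of imipramine non-responders.

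Each of the 99 libraries was made from tissue pooled from 2 mice, so the spread between libraries is a spread between pools and p-values measure that spread. Total counts ranged from 14459028 to 59187954 per library (median 31086418). Levels are given as CPM, counts scaled to a common library size after TMM normalisation, and levels of different genes are compared only after division by exon length, as CPM per kilobase. The libraries do not mark the strand, so reads from a gene and from an overlapping gene on the other strand cannot be told apart, and reads shared by close paralogues may have been split or dropped. Differences are log2 fold changes with the standard error (SE) of the edgeR quasi-likelihood fit, and a gene was called at a Benjamini-Hochberg adjusted p below 0.05 over all genes tested. The dissections were checked against marker genes in controls. The 12 striatal projection neuron markers summed to 8199 to 11380 CPM in the nucleus accumbens and at most 1095 CPM elsewhere. The 8 hippocampal markers summed to 799 to 922 CPM in the ventral hippocampus and at most 376 CPM elsewhere, with 1 of the 8 at 0 in every library. The 5 amygdala markers did not set the amygdala apart, with 638 to 885 CPM there and 970 to 1119 CPM in the prefrontal cortex.

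Neurotransmitter release begins when transporters load a vesicle with glutamate or GABA and synapsins hold it in a reserve near the terminal membrane. At the active zone, scaffold proteins and priming factors dock the vesicle and help the SNARE proteins of vesicle and plasma membrane to zip together, complexins clamp and stabilise that assembly, and synaptotagmins trigger fusion when calcium enters. The ATPase Nsf and its adaptors then pull the spent SNARE complexes apart for reuse. Most steps are served by several paralogues, and neurons of cortex, hippocampus and striatum are known to use different sets of them.

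Promoter sequences were found for 25 of the 34 members in a RefSeq table of mouse build GRCm38.p6, and the 250 bases before the start site were searched on both strands for 3 motifs. The cAMP response element TGACGTCA (a palindrome) was present in 1 of 25 member promoters and 1.62% of 27025 promoters of the same length. The left part of the repressor element RE1, TTCAGCACC or its reverse GGTGCTGAA, was present in 1 of 25 and 0.285%. The GC box GGGCGG or its reverse CCGCCC was present in 16 of 25 and 32.9%. The sequences of 6 members are printed 5′ to 3′ on the gene's own strand, with every match in capitals. Syn1 is shown because it carried both rarer motifs, and the other 5 because they were among the members that differed most between regions.
Syn1, chrX:20920919-20921168, minus strand: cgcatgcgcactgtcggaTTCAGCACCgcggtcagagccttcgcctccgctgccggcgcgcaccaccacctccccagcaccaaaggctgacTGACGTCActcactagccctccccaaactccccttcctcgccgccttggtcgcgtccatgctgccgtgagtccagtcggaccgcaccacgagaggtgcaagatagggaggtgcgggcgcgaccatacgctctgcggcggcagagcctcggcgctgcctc
Stx1a, chr5:135023232-135023481, plus strand: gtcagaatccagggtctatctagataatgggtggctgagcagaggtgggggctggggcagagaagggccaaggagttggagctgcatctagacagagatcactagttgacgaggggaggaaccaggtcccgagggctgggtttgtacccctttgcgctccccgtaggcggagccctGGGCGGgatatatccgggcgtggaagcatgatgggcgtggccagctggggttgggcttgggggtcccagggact
Slc17a7, chr7:45163671-45163920, plus strand: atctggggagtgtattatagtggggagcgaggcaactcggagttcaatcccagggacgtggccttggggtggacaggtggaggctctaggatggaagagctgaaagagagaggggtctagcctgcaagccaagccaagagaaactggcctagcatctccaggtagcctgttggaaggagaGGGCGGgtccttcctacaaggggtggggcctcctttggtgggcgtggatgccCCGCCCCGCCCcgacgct
Sv2c, chr13:96132578-96132827, minus strand: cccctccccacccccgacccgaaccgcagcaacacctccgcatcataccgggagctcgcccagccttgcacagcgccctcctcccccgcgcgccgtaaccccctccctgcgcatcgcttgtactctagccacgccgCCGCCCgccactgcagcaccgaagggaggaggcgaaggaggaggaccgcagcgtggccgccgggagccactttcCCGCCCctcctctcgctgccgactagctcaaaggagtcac
Unc13c, chr9:73969038-73969287, minus strand: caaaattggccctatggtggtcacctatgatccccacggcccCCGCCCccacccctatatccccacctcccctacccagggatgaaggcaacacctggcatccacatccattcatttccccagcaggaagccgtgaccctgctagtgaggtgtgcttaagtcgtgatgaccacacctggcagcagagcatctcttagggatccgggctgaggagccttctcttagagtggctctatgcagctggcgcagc
Slc32a1, chr2:158610508-158610757, plus strand: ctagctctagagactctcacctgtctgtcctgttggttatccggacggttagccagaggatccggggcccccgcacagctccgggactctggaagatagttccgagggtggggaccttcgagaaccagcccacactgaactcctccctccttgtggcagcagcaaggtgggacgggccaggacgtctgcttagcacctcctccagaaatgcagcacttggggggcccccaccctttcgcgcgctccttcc
The 2 capitalised runs of Syn1 are the RE1 part and the cAMP response element. Slc17a7, high in the prefrontal cortex, held 3 GC boxes, of which the last pair overlap. Sv2c and Unc13c, both high in the nucleus accumbens, held 2 and 1, Stx1a held 1, and Slc32a1, also high in the nucleus accumbens, held 0.

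A pair of libraries stood apart from all others in the members' values. They were replicate 3 of the imipramine responders in the nucleus accumbens and replicate 2 of the imipramine responders in the amygdala. In each, most of the 17 members with at least 7041 exonic bases were below the region's median (16 in the accumbens library, all but Syt2, and 15 in the amygdala library, all but Syt2 and Vamp1), with a median log2 deviation of -1.13 and -1.21. The 17 shorter members had medians of 0.14 and 0.42, with 6 and 7 of them below the region's median. In the other 97 libraries the median of the longer members minus that of the shorter members lay between -0.45 and 0.21, against -1.27 and -1.62 in this pair. Sv2c, a vesicle glycoprotein, was at 2.09 CPM in the accumbens library and 83.1 to 145 CPM in the 24 others, and at 2.42 CPM in the amygdala library against 19.7 to 80.9 CPM. The giant scaffold Pclo was at 28.3 CPM against 214 to 370 CPM, and at 40.6 CPM against 164 to 398 CPM. Rab3a, a short member and the small GTPase of docked vesicles, was high, at 605 CPM against 319 to 441 CPM, and at 795 CPM against 442 to 598 CPM. Among all genes compared, those of at least that length also had lower medians (-0.65 and -0.64) than shorter genes (0.23 and 0.22). Mitochondrial genes took 9.34% and 8.25% of counts in these libraries, and up to 8.48% in the others. Whether RNA quality had a part in this was not tested. Replicate 3 of the ketamine responders in the ventral hippocampus was set apart by thalamic marker genes and is taken up with the hippocampal results. Comparisons between conditions that hold 1 of these 3 libraries are given with and without it.

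**Figure D1:**
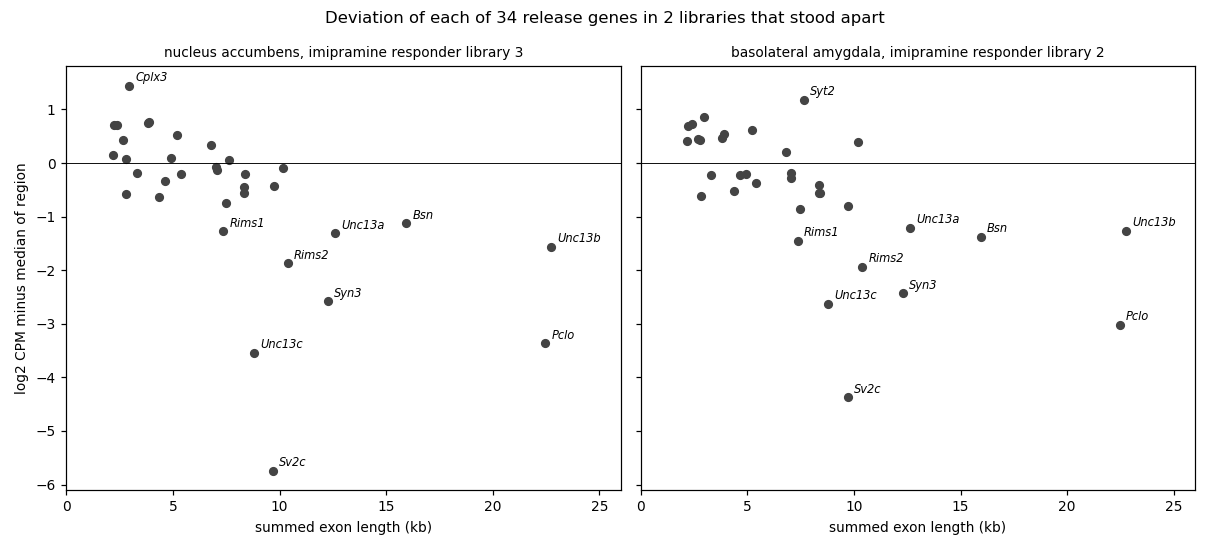
Each point is 1 member, with its summed exon length in kilobases on the x axis and its log2 CPM minus the median of the region on the y axis, in the 2 imipramine responder libraries that stood apart. The long members named in the plot lie below 0, down to -5.74 and -4.37 for Sv2c, except Syt2 at 1.18 in the amygdala library. Most short members lie near or above 0.

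All 34 members differed among the 4 regions of control mice (edgeR quasi-likelihood F-test over 3 differences), against 72.9% of the 17720 genes tested. Release genes were highest in the prefrontal cortex for 20 members and lowest in the nucleus accumbens for 21. Against the nucleus accumbens, 23 members were called higher and 6 lower in the prefrontal cortex, where 26.5% and 29.7% of all genes were called (56.2% in all). The members' median log2 difference was 0.67 and that of all genes -0.04. Against the ventral hippocampus, 22 members were higher and 5 lower in the prefrontal cortex (21.8% and 20.1% of all genes, medians 0.34 and 0.01). Against the amygdala the counts were 14 and 7 (18.2% and 17.9%, medians 0.14 and -0.01). In bulk tissue, fewer cells of a type and less RNA per cell cannot be told apart.

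The nucleus accumbens had 7 members higher and 20 lower than the ventral hippocampus (26.3% and 24.6% of all genes, medians -0.35 and 0.03). Against the amygdala it again had 7 higher and 20 lower (25.2% and 24.7% of all genes, 49.9% together, medians -0.44 and 0.02). The ventral hippocampus had 7 higher and 14 lower than the amygdala (19.3% and 21.2%, medians -0.20 and -0.01). As many as 17 members were lower in the nucleus accumbens than in each of the other 3 regions, and 3 were higher than in each, namely Sv2c, Unc13c and Slc32a1, where 12.1% and 13.1% of all genes met the same rule of 3 calls. Stx1a, Syt1, Syn1 and Unc13c were called in all 6 pairs of regions, and 18 members in 5 of 6. Single pairs called 36.1% to 56.2% of all genes, and the share of all genes called in 5 or 6 pairs was not counted. Of the 10 neuron markers, none of them a member, 9 were called higher and 1 lower in prefrontal cortex than in nucleus accumbens. Against the amygdala, 3 of them were higher and 2 lower in prefrontal cortex (median 0.06), where the members had 14 and 7. The neuron markers summed to 3636 to 3904 CPM in the accumbens, 4833 to 5023 CPM in the prefrontal cortex, 4006 to 4470 CPM in the ventral hippocampus and 5122 to 5313 CPM in the amygdala. Their sum was highest in the amygdala, but their order depended on the measure. The mean log2 CPM of the same 10 markers was 8.45 to 8.54 in the prefrontal cortex and 8.36 to 8.47 in the amygdala. The 10 oligodendrocyte markers summed to 4714 to 5882 CPM in the accumbens and 1295 to 2083 CPM in the prefrontal cortex. They summed to 6300 to 9032 CPM in the ventral hippocampus and 2554 to 3834 CPM in the amygdala. No marker of either list was at 0, and their part in the members' differences was not tested.

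**Figure D2:**
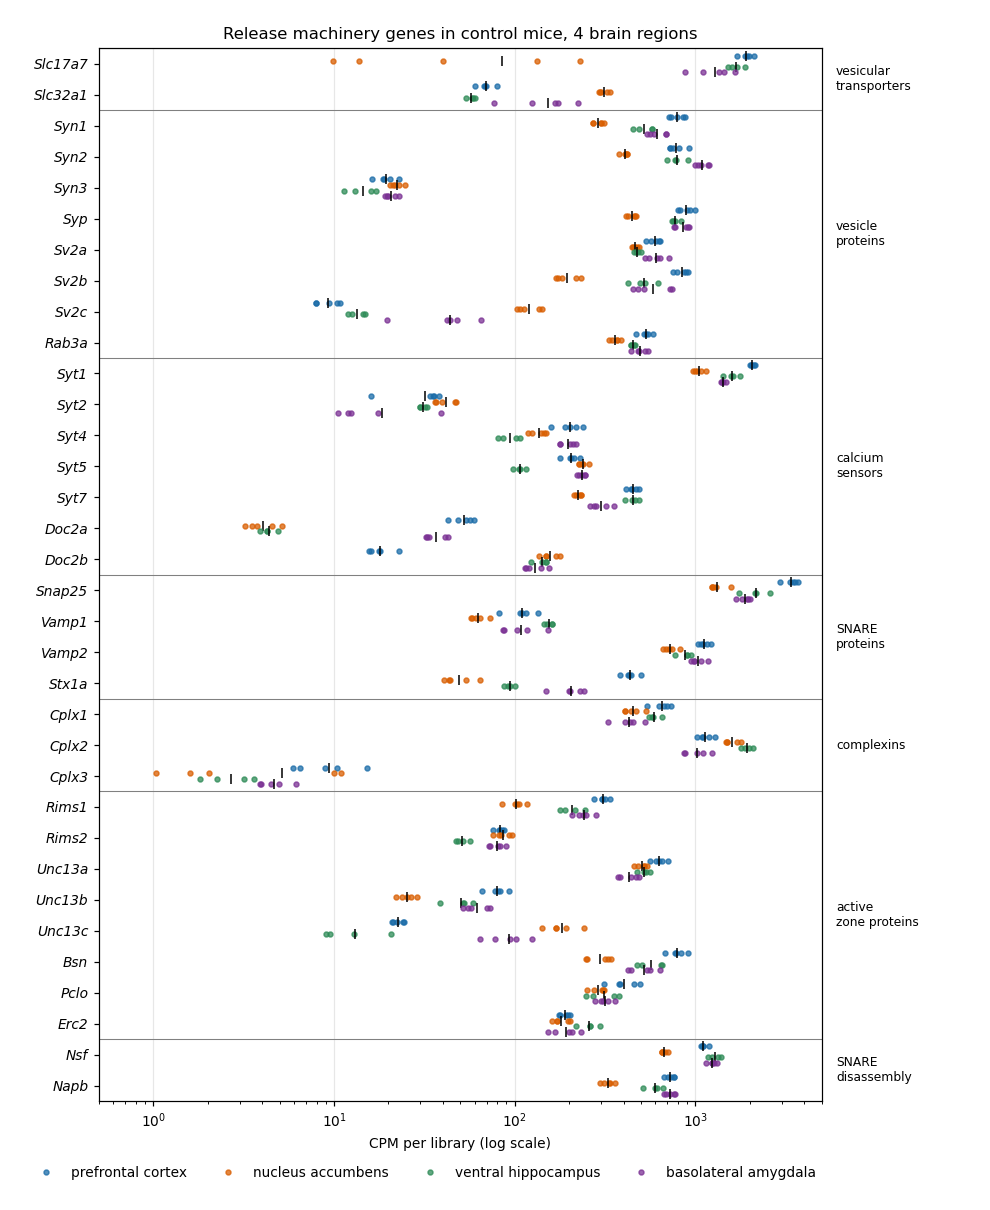
Each point is 1 control library, coloured by region, with CPM on a log axis for the 34 members ordered by role, and each bar is a regional mean. Accumbens points (orange) lie left of the others for most members, and right of them for Sv2c, Unc13c and Slc32a1.

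Per kilobase, Snap25 had the highest level of the 34 members in the prefrontal cortex (501 CPM per kilobase) and amygdala (276), and Cplx2 in the nucleus accumbens (323) and ventral hippocampus (393). Slc17a7 ranked 2 in the prefrontal cortex, at 356 CPM per kilobase, and stood at 15.8 CPM per kilobase in the nucleus accumbens. The lowest were Sv2c in the prefrontal cortex (0.957 CPM per kilobase), Unc13b in the nucleus accumbens (1.11) and Cplx3 in the ventral hippocampus (0.916) and amygdala (1.58).

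The vesicular transporters set the nucleus accumbens apart from every other region, with Slc17a7 low and Slc32a1 high there. Neither was called between prefrontal cortex and ventral hippocampus. Slc17a7 (ENSMUSG00000070570), which loads glutamate in cortical and hippocampal neurons, was at 1693, 1928, 1984, 1881 and 2099 CPM in the control libraries of the prefrontal cortex, 1689, 1521, 1596 and 1884 CPM in the ventral hippocampus and 871, 1354, 1104, 1433 and 1648 CPM in the amygdala. In the nucleus accumbens the 5 libraries were at 9.82, 40.1, 13.7, 229 and 133 CPM. All accumbens libraries lay below every library of the other regions, and they varied widely among themselves. Slc17a7 was higher in the prefrontal cortex than in the accumbens by 4.49 (SE 0.68, edgeR adjusted p = 3.08e-05), and its differences among prefrontal cortex, hippocampus and amygdala did not pass (0.21, 0.59 and 0.38). Slc32a1 (ENSMUSG00000037771), which loads GABA and glycine, was at 60.3, 68.2, 79.4, 67.5 and 69.3 CPM in the prefrontal cortex, 293, 299, 339, 296 and 323 CPM in the nucleus accumbens, 59.9, 57.9, 53.5 and 58.7 CPM in the ventral hippocampus and 166, 174, 223, 124 and 76.4 CPM in the amygdala. Accumbens libraries were above all others, and amygdala libraries, the most spread, overlapped those of the prefrontal cortex. Slc32a1 was lower in the prefrontal cortex than in the accumbens by a log2 difference of -2.17 (SE 0.187, edgeR adjusted p = 9.97e-09) and higher in the accumbens than in the amygdala by 1.03 (SE 0.1801, edgeR adjusted p = 9.80e-05). The median ratio of Slc17a7 to Slc32a1 per kilobase was 14.6 in the prefrontal cortex, 15.0 in the ventral hippocampus and 4.03 in the amygdala, and Slc32a1 exceeded Slc17a7 by 14.4-fold in the accumbens.

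Vesicle proteins were mostly low in the nucleus accumbens: 6 of 8 were higher in the prefrontal cortex and 1 lower (26.5% and 29.7% of all genes). Synaptophysin (Syp), the classical marker protein of the vesicle membrane, was at 889 ± 79.5 CPM (SD, n = 5) in the prefrontal cortex and 445 ± 23.2 CPM (n = 5) in the accumbens, a log2 difference of 1.00 (SE 0.0703). The synapsins Syn1 and Syn2 gave 1.45 (SE 0.0861) and 0.95 (SE 0.0785) in the same comparison. Both are phosphoproteins that tether vesicles to each other, and each was lower in the accumbens than in all 3 other regions. Syn2 was highest in the amygdala at 1092 ± 86.6 CPM (n = 5). The third synapsin, Syn3, had the lowest level per kilobase of the 3 and differed little, from 14.4 ± 2.66 CPM (n = 4) in the ventral hippocampus to 22.2 ± 1.71 CPM (n = 5) in the accumbens. Rab3a was higher in the prefrontal cortex than in the accumbens by 0.55 (SE 0.0640).

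The Sv2 glycoproteins, through which botulinum toxin A enters terminals, went in opposite directions. Sv2b (ENSMUSG00000053025) was at 865, 796, 747, 886 and 914 CPM in the prefrontal cortex, 182, 169, 173, 218 and 233 CPM in the nucleus accumbens, 494, 422, 529 and 624 CPM in the ventral hippocampus and 484, 520.4, 454, 742 and 723 CPM in the amygdala. Sv2c (ENSMUSG00000051111) was at 10.4, 7.95, 7.90, 10.8 and 9.34 CPM, 142, 107, 113, 103 and 137 CPM, 14.8, 14.4, 12.5 and 11.9 CPM and 65.1, 43.8, 42.0, 48.1 and 19.7 CPM in the same order. Neither overlapped between prefrontal cortex and accumbens, with Sv2b high in the first and Sv2c in the second. The log2 differences were 2.11 (SE 0.141, edgeR adjusted p = 1.08e-10) for Sv2b and -3.70 (SE 0.230, edgeR adjusted p = 1.16e-10) for Sv2c. Sv2c in the amygdala, spread from 19.7 to 65.1 CPM, was also above the prefrontal cortex (log2 difference of prefrontal cortex minus amygdala -2.24, SE 0.222). Sv2a, the broadly expressed member that binds the antiepileptic levetiracetam, stayed between 465.5 ± 17.3 CPM (n = 5) in the accumbens and 609 ± 74.4 CPM (n = 5) in the amygdala. Per kilobase, the median ratio of Sv2b to Sv2c was 109.5 in the prefrontal cortex, 43.5 in the ventral hippocampus, 13.8 in the amygdala and 1.83 in the accumbens of controls.

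Among calcium sensors, Doc2a and Doc2b exchanged places between regions. These are soluble, high-affinity calcium-binding proteins linked to spontaneous and delayed release. Doc2a (ENSMUSG00000052301) was at 42.5, 54.0, 48.6, 56.2 and 59.3 CPM in the prefrontal cortex and 32.8, 42.8, 41.2, 32.2 and 33.7 CPM in the amygdala, and at 3.23, 4.53, 3.52, 5.14 and 3.77 CPM in the nucleus accumbens and 4.89, 4.28, 4.28 and 3.91 CPM in the ventral hippocampus. Doc2b (ENSMUSG00000020848) was at 18.1, 16.0, 15.6, 17.6 and 22.9 CPM in the prefrontal cortex, 177, 149, 148, 136 and 169.6 CPM in the accumbens, 148, 149, 141 and 124 CPM in the ventral hippocampus and 140.4, 121, 115, 114 and 155 CPM in the amygdala. For Doc2a the accumbens and hippocampus lay far below both other regions, and for Doc2b the prefrontal cortex lay below all 3 others, with no overlap in either case. Prefrontal cortex minus accumbens gave 3.68 (SE 0.129, edgeR adjusted p = 2.42e-15) for Doc2a and -3.11 (SE 0.112, edgeR adjusted p = 3.41e-15) for Doc2b. The Doc2a to Doc2b ratio per kilobase had a median of 4.84 in control prefrontal cortex, and the inverse was 27.1 in the accumbens, 20.8 in the ventral hippocampus and 2.27 in the amygdala. The order held in every library of all 7 conditions: the log2 ratio was 1.87 to 2.64 in the 25 libraries of the prefrontal cortex and at most -0.53 in any library of the other regions.

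The synaptotagmins were more evenly spread. Syt1, the main trigger of fast synchronous release in the forebrain, was at 2064 ± 56.3 CPM (n = 5) in the prefrontal cortex and 1044 ± 72.3 CPM (n = 5) in the accumbens (log2 difference 0.98, SE 0.0563), and differed in all 6 pairs. Syt7, a slow high-affinity sensor, was at 452 ± 27.4 CPM (n = 5) in the prefrontal cortex and 452 ± 33.1 CPM (n = 4) in the ventral hippocampus, with 225 ± 8.43 CPM (n = 5) in the accumbens. Syt5, a calcium-binding relative, was lowest in the ventral hippocampus at 106 ± 7.15 CPM (n = 4), against 238 ± 12.9 CPM (n = 5) in the accumbens. Syt4, which sits on dense-core vesicles and binds calcium weakly, was also lowest in the ventral hippocampus, at 94.1 ± 12.7 CPM (n = 4). Syt2, the fast sensor of brainstem and some inhibitory terminals, varied most between libraries: it was 18.3 ± 12.0 CPM (n = 5) in the amygdala and was called in 2 of 6 pairs.

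All 4 SNARE proteins, which form the fusion complex itself, were lower in the nucleus accumbens than in each other region (12.1% of all genes). Stx1a (ENSMUSG00000007207), a syntaxin of the plasma membrane, was at 381, 440.5, 500.4, 424 and 429 CPM in the prefrontal cortex, 40.8, 43.6, 43.1, 63.9 and 53.6 CPM in the accumbens, 92.2, 94.6, 87.7 and 99.9 CPM in the ventral hippocampus and 148, 231, 200.1, 201 and 242 CPM in the amygdala. The 4 sets of libraries did not overlap. The log2 differences of prefrontal cortex minus the others were 3.15 (SE 0.133), 2.23 (SE 0.139) and 1.10 (SE 0.123), with edgeR adjusted p = 8.32e-14, 6.03e-11 and 5.98e-07. Its plasma membrane partner Snap25 (ENSMUSG00000027273) was at 3461, 3328, 3681, 3577 and 2952 CPM, 1230, 1304, 1244, 1228 and 1569 CPM, 2138, 1749, 2176 and 2581 CPM and 1680, 1934, 1803, 2000 and 1951 CPM in the same order. Prefrontal libraries were the highest and accumbens libraries the lowest, while hippocampus and amygdala overlapped. Prefrontal cortex exceeded the accumbens by 1.37 (SE 0.0912, edgeR adjusted p = 3.50e-11). The vesicle SNARE Vamp2 was at 1114 ± 74.1 CPM (n = 5) in the prefrontal cortex and 727 ± 63.0 CPM (n = 5) in the accumbens. Its paralogue Vamp1 was highest in the ventral hippocampus, at 154 ± 7.26 CPM (n = 4). Vamp2 exceeded Vamp1 per kilobase in every region, by a median of 15.4-fold in the ventral hippocampus to 30.2-fold in the accumbens of controls.

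Complexins, small proteins that bind the assembled SNARE complex, did not share one order of regions. Cplx2 (ENSMUSG00000025867) was at 1083, 1100, 1288, 1194 and 1018 CPM in the prefrontal cortex, 1696, 1474, 1505, 1488 and 1798 CPM in the accumbens, 1992, 1797, 1887 and 2077 CPM in the ventral hippocampus and 1104, 1017, 862, 874 and 1230 CPM in the amygdala. The ventral hippocampus and accumbens were highest, and their ranges met at 1797 and 1798 CPM. The hippocampus exceeded the amygdala by 0.93 (SE 0.0937, edgeR adjusted p = 5.51e-08). Cplx1, its close paralogue, was highest in the prefrontal cortex, at 653 ± 75.4 CPM (n = 5), so that the median log2 ratio of Cplx1 to Cplx2 per kilobase was 0.38 there and -0.68 in the accumbens. Cplx3 (ENSMUSG00000039714), a complexin of retinal ribbon synapses that is sparse in most of the brain, was at 5.90, 15.2, 10.4, 8.91 and 6.50 CPM in the prefrontal cortex, 1.59, 2.03, 1.03, 10.9 and 10.0 CPM in the accumbens, 3.18, 3.59, 1.80 and 2.24 CPM in the ventral hippocampus and 4.93, 4.46, 3.94, 3.88 and 6.18 CPM in the amygdala. Its libraries overlapped between most regions, and the accumbens fell into 3 low and 2 higher libraries. The higher ones, replicates 4 and 5, also had the highest mean log2 CPM of the 8 cortical projection neuron markers among these 5. They were at 3.15 and 2.76, against 0.80 to 1.86 in the low ones, and the markers' part was not tested. The single call for Cplx3 was prefrontal cortex over ventral hippocampus, by 1.78 (SE 0.568, edgeR adjusted p = 0.0174).

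**Figure D3:**
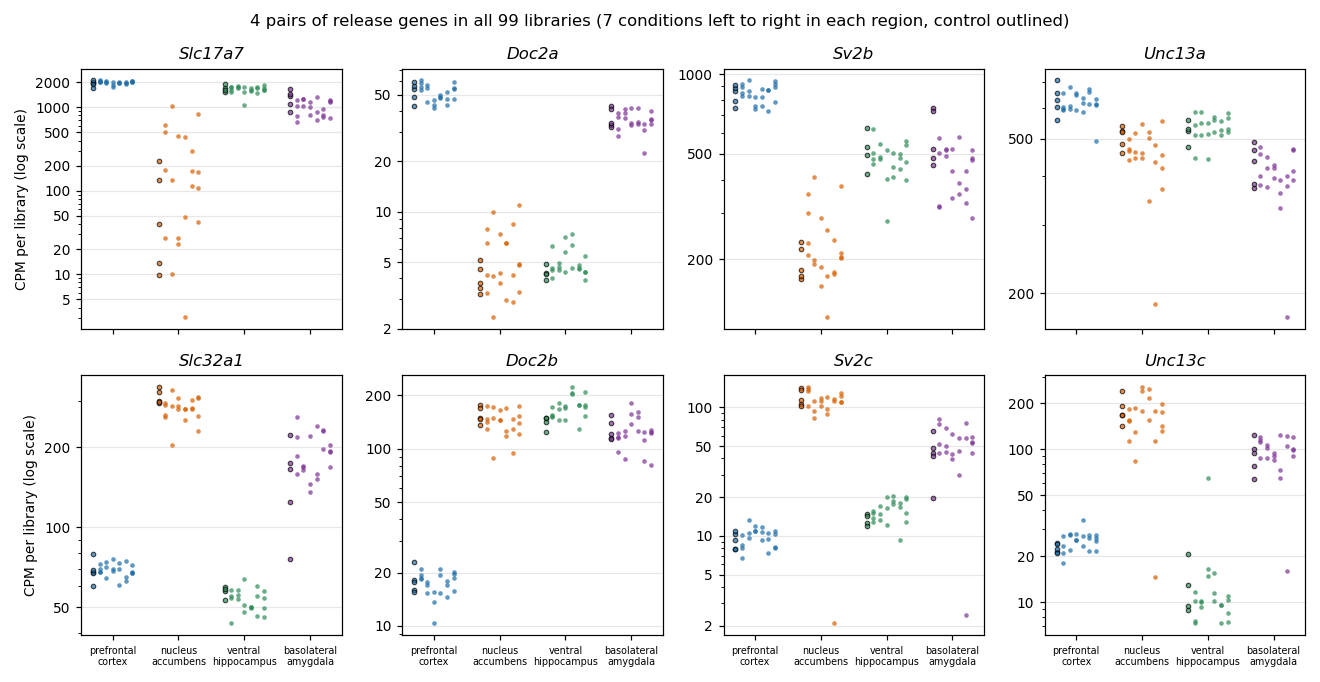
Each point is 1 of the 99 libraries, with CPM on a log axis, for 4 pairs of genes by region, with the 7 conditions from left to right and controls outlined. Doc2a and Doc2b, and Slc17a7 and Slc32a1, have opposite orders of prefrontal cortex and nucleus accumbens, and the low points of Sv2c and Unc13c in accumbens and amygdala are the 2 libraries that stood apart.

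At the active zone, the priming proteins of the Unc13 family showed the sharpest regional contrast. Unc13c (ENSMUSG00000062151), best known from cerebellar granule cells, was at 24.5, 21.3, 20.9, 24.1 and 22.3 CPM in the prefrontal cortex, 241, 193, 169, 142 and 169 CPM in the accumbens, 20.8, 13.0, 9.50 and 8.97 CPM in the ventral hippocampus and 125, 101, 94.5, 78.2 and 63.9 CPM in the amygdala. The 4 sets of libraries did not overlap. The accumbens exceeded the hippocampus by 3.80 (SE 0.246, edgeR adjusted p = 2.31e-10) and the amygdala by 0.99 (SE 0.197, edgeR adjusted p = 0.000366). Unc13b (ENSMUSG00000028456), a priming factor of a subset of hippocampal synapses, went the other way, at 80.8, 92.8, 82.5, 65.8 and 77.8 CPM, 21.99, 26.7, 23.6, 28.9 and 25.4 CPM, 51.7, 52.6, 38.5 and 58.5 CPM and 51.5, 73.2, 55.2, 57.4 and 70.5 CPM in the same order. All accumbens libraries lay below those of the other regions, and prefrontal cortex exceeded the accumbens by 1.66 (SE 0.119, edgeR adjusted p = 1.68e-10). Unc13a, the main priming factor of forebrain synapses, varied little, from 430 ± 50.9 CPM (n = 5) in the amygdala to 630 ± 55.3 CPM (n = 5) in the prefrontal cortex. Per kilobase, Unc13a exceeded Unc13c by a median of 19.7-fold in control prefrontal cortex, 31.3-fold in the ventral hippocampus, 3.36-fold in the amygdala and 2.00-fold in the accumbens.

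The scaffolds around them differed less. Rims1, which ties vesicles to calcium channels, was at 307 ± 23.8 CPM (n = 5) in the prefrontal cortex and 102 ± 11.4 CPM (n = 5) in the accumbens, a log2 difference of 1.59 (SE 0.0948). Its paralogue Rims2 was lowest in the ventral hippocampus, at 50.8 ± 4.15 CPM (n = 4) against 79.6 to 86.2 CPM elsewhere. The giant scaffolds Bsn and Pclo were higher in the prefrontal cortex than in the accumbens by 1.42 (SE 0.125) and 0.48 (SE 0.119). Erc2, a further scaffold of the active zone, was highest in the ventral hippocampus at 259 ± 32.1 CPM (n = 4). The ATPase that recycles SNARE complexes, Nsf (ENSMUSG00000034187), was at 1081, 1102, 1096, 1068 and 1182 CPM in the prefrontal cortex, 651, 649.5, 649, 678 and 705 CPM in the accumbens, 1336, 1176, 1228 and 1390 CPM in the ventral hippocampus and 1150, 1317, 1272, 1233 and 1240 CPM in the amygdala. Its neuronal adaptor Napb (ENSMUSG00000027438) was at 729.8, 709, 671, 761 and 757 CPM, 332, 337, 295, 311 and 359 CPM, 601, 513, 614 and 659.6 CPM and 689.8, 722, 672, 773 and 760.2 CPM in the same order. Both were lowest in the accumbens with no overlap. The ventral hippocampus exceeded the accumbens for Nsf (accumbens minus hippocampus -0.93, SE 0.0568, edgeR adjusted p = 9.64e-12) and the prefrontal cortex exceeded it for Napb (1.15, SE 0.0675, edgeR adjusted p = 4.58e-12).

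The 44 other release genes of the list, which add further synaptotagmins, active zone and endocytic proteins and transporters, were matched for 43 and tested for 42, of which 41 differed among regions by the F-test (72.9% of all genes). In the prefrontal cortex 30 were higher and 6 lower than in the nucleus accumbens (26.5% and 29.7% of all genes), and in the accumbens 11 were higher and 26 lower than in the ventral hippocampus (26.3% and 24.6%). Against the amygdala the accumbens had 7 higher and 29 lower (25.2% and 24.7%). The largest differences were those of Syt6 (accumbens minus hippocampus 4.62, SE 0.243), the glutamate transporter Slc17a6 (accumbens minus amygdala -3.49), Syt17 (prefrontal cortex minus accumbens 3.30) and the priming factor Cadps2 (accumbens minus amygdala -2.76).

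Stress and drug groups were compared within each region, in 9 comparisons, to ask whether release genes differed with defeat, resilience, drug or response. In contrast to the regions, 1 of 1224 member differences was called, that of Cplx3 in the ventral hippocampus of ketamine responders. In 35 of 36 comparisons edgeR called 0 members, and DESeq2 also called 0 in 35. All genes gave 0 calls (0%) in 34 comparisons, 0.67% for ketamine responders and 0.00563% for ketamine non-responders in the ventral hippocampus. At an unadjusted p below 0.05 there were 28 of 306 member differences in the prefrontal cortex (9.15%, against 4.75% of the differences of all genes), 3 in the accumbens (0.98% against 4.43%), 15 in the ventral hippocampus (4.90% against 3.43%) and 27 in the amygdala (8.82% against 5.25%). Without the library that stood apart there were 12 in the accumbens (3.92% against 3.33%), 10 in the ventral hippocampus (3.27% against 2.70%) and 31 in the amygdala (10.1% against 5.70%). Members share libraries within a comparison, and the 9 comparisons of a region share groups, so these shares carry no test. Most differences were small: 87.3% of them were under 0.2 on the log2 scale in the prefrontal cortex, 86.6% in the ventral hippocampus, 69.3% in the accumbens and 65.4% in the amygdala, and 90.5%, 76.8% and 71.6% in the last 3 without the library that stood apart. The median SE over members and comparisons was 0.0779, 0.113, 0.207 and 0.170 in the same order.

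**Figure D4:**
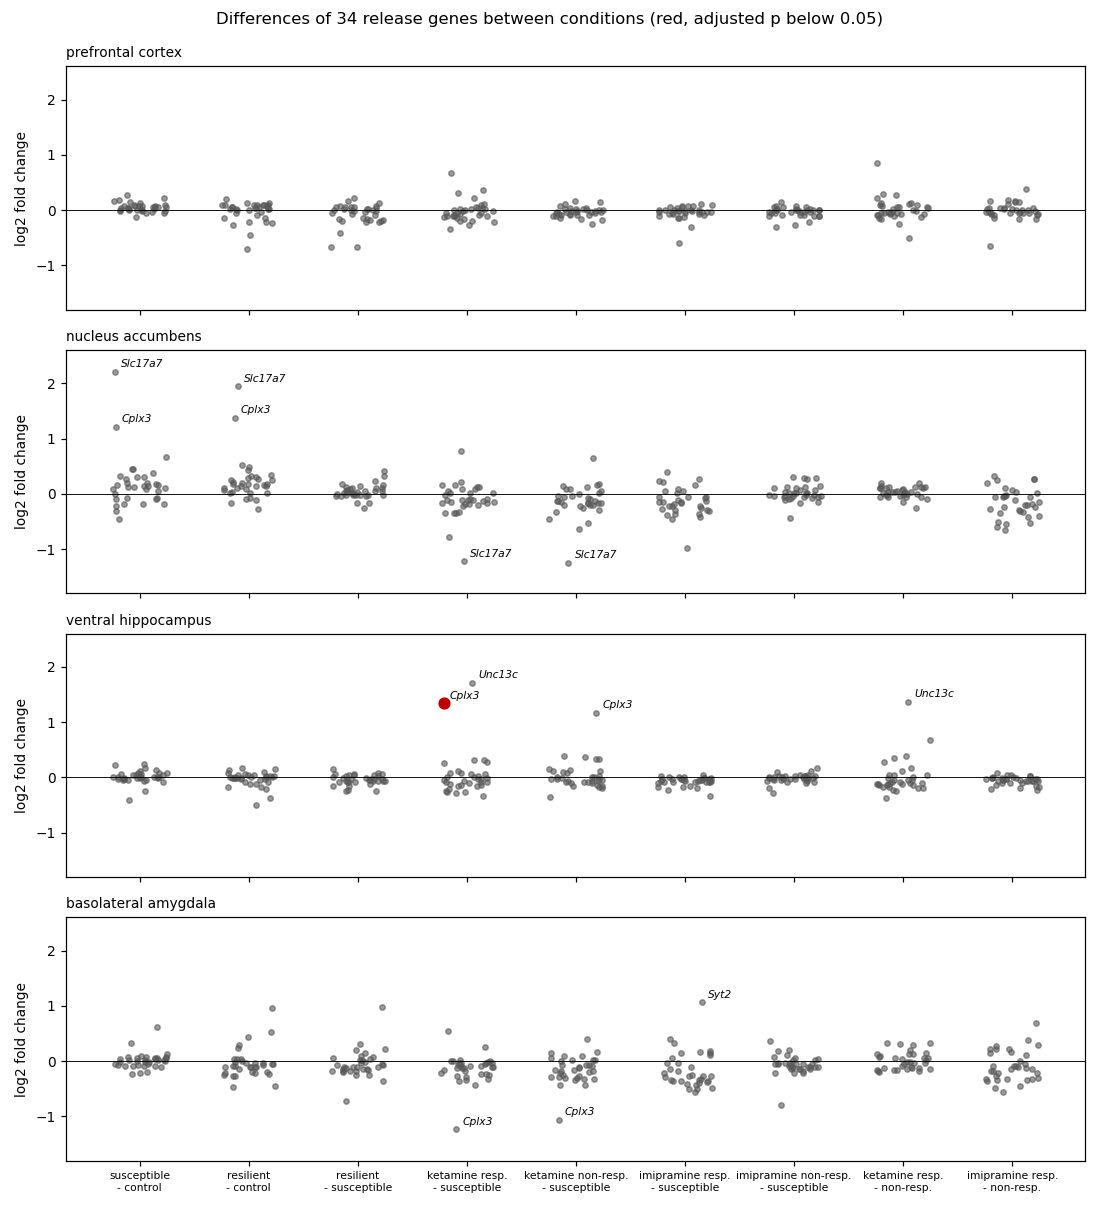
Each point is the log2 fold change of 1 of the 34 members in 1 of the 9 comparisons of a region, and members beyond 1 in either direction are named. Values gather around 0 and spread further in nucleus accumbens and amygdala, and the 1 called value (red) is Cplx3 in the hippocampus of ketamine responders.

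In the ventral hippocampus, Cplx3 was at 5.03, 4.06 and 8.39 CPM in the 3 ketamine responders and 2.14, 2.39 and 2.38 CPM in the 3 susceptible mice given saline. Ketamine non-responders were at 6.74, 6.12 and 2.58 CPM, and the 4 controls were at most 3.59 CPM. Every responder library was above every susceptible and control library, and non-responders overlapped with responders and controls. Cplx3 rose in responders by 1.34 (SE 0.309), a 2.53-fold difference with edgeR adjusted p = 0.0437, where 0.67% of 17758 genes were called (0.619% higher). For non-responders the difference was 1.17 (SE 0.313, edgeR adjusted p = 0.336), and responders minus non-responders gave 0.17 (SE 0.298), and -0.19 without responder replicate 3. The F-test over all 7 conditions also called Cplx3 in the ventral hippocampus (edgeR adjusted p = 0.00852, 0.535% of genes called), with 0 other members, and edgeR adjusted p was 0.0577 without responder replicate 3. Without responder replicate 3 the difference was 0.97 and edgeR adjusted p = 0.517, and leaving out susceptible replicate 1, 2 or 3 also ended the call (1.29, 1.37 and 1.36, edgeR adjusted p = 0.220, 0.182 and 0.183). The call was kept under 5 of 10 alternative settings, with values of 0.97 to 1.55.

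Unc13c, chosen after its values were seen, had a larger difference that was not called by edgeR: 14.9, 16.4 and 65.2 CPM in responders, 10.2, 10.1 and 9.35 CPM in susceptible mice and 15.6, 10.2 and 11.4 CPM in non-responders. Responders were above susceptible mice in every library, with replicate 3 far above the other two. The difference was 1.71 (SE 0.424, edgeR adjusted p = 0.0834), and 0.66 (edgeR adjusted p = 0.954) without replicate 3. DESeq2 called it beside Cplx3. Across all 34 members the median difference in responders was -0.04, and without replicate 3 it was -0.03.

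Other release genes moved in the same comparison. Slc17a6, the glutamate transporter of thalamus and other subcortical nuclei, was at 21.98, 30.8 and 152 CPM in responders and 6.35, 4.88 and 7.45 CPM in susceptible mice. It rose by 3.46 (SE 0.688, edgeR adjusted p = 0.0250). Syt9, a fast calcium sensor of limbic and striatal neurons, was at 5.44, 10.8 and 33.8 CPM against 2.88, 2.37 and 2.86 CPM and rose by 2.63 (SE 0.539, edgeR adjusted p = 0.0267). Rims3, a short member of the Rim family, was at 81.6, 95.1 and 335 CPM against 49.0, 48.1 and 50.4 CPM and rose by 1.79 (SE 0.377, edgeR adjusted p = 0.0317). Non-responders were at 23.3, 18.7 and 19.0 CPM for Slc17a6, 6.81, 7.04 and 5.04 CPM for Syt9 and 82.0, 71.4 and 65.6 CPM for Rims3. Control replicate 1 was at 26.5, 9.83 and 106 CPM in the same order. For each gene responders thus overlapped with non-responders and with this control library. No responder library overlapped with a susceptible one for these genes, and responder replicate 3 was the highest each time. Without it the differences were 2.09, 1.58 and 0.84, with edgeR adjusted p = 0.346, 0.355 and 0.296. Leaving out any 1 of the 3 susceptible libraries also ended each call, with differences of 3.30 to 3.61 for Slc17a6, 2.54 to 2.68 for Syt9 and 1.77 to 1.81 for Rims3 (edgeR adjusted p from 0.139 to 0.167). Each differed between regions (F-test on the difference in a fit of 99 libraries, edgeR adjusted p = 0.00937 for Slc17a6, 2.54e-05 for Syt9 and 0.0150 for Rims3, 0.662% of genes called), while 0 members did. Without the 3 libraries that stood apart none of the 3 passed that test (edgeR adjusted p = 0.737, 0.0601 and 1.00).

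Markers of the thalamus moved with these values. All 10 of 10 thalamic markers were called higher in the ventral hippocampus of ketamine responders (median log2 difference 2.79) and 1 of 10 in non-responders (1.47), with none at 0. Of all genes, 0.619% and 0.00563% were called higher. In non-responders 8 of 10 markers were at an unadjusted p below 0.05 (5.73% of all genes). Without responder replicate 3, 2 of 10 were called in responders, with a median of 1.95 and all 10 at an unadjusted p below 0.05. They summed to 229 to 884 CPM in responders, 221 to 259 CPM in non-responders, 88.5 to 99.4 CPM in susceptible mice and 78.3 to 259 CPM in controls. The mean log2 CPM of the list was 3.87, 4.55 and 5.90 in responder replicates 1 to 3, and the library with the highest value was also highest for Cplx3, Unc13c, Slc17a6, Syt9 and Rims3. The marker level was 4.00, 3.74 and 3.82 in non-responders and 2.38, 2.43 and 2.33 in susceptible mice. Responder replicate 2 had less Cplx3 than replicate 1 (4.06 and 5.03 CPM). Control replicate 1, at a marker level of 3.99, had the highest Unc13c of the controls, 20.8 CPM. Its Cplx3 was at 3.18 CPM, and that of control replicate 2, with a marker level of 2.46, at 3.59 CPM. The 6 choroid plexus markers summed to 47.9 to 2543 CPM in responders and 37.8 to 44.0 CPM in susceptible mice. Their part in the differences of Cplx3 and the other genes was not tested.

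**Figure D5:**
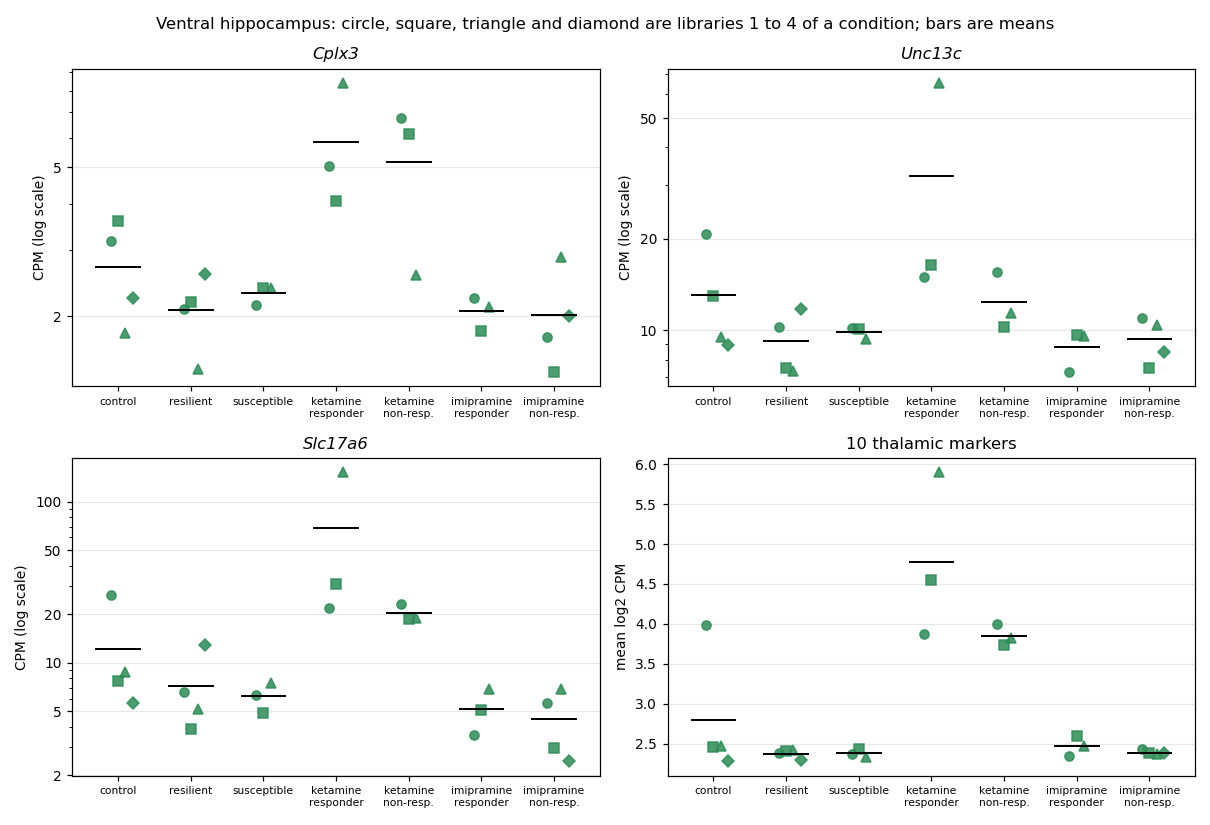
Each point is 1 ventral hippocampus library, by condition, with CPM on a log axis for Cplx3, Unc13c and Slc17a6 and the mean log2 CPM of 10 thalamic markers, and bars are group means. Replicate 3 of the ketamine responders (triangle) is the highest library in all 4 panels, at 8.39 CPM for Cplx3 and 5.90 for the markers.

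In the nucleus accumbens, susceptible, resilient and control mice differed most by value in Slc17a7, which was chosen after its values were seen. It was at 10.0, 135 and 1028 CPM in susceptible mice and 503, 610.5, 27.2 and 179 CPM in resilient mice, and in the 5 controls at 9.82 to 229 CPM, and over all 25 libraries it ranged from 3.08 to 1028 CPM. All groups overlapped. Susceptible minus control was 2.20 (SE 1.35, edgeR adjusted p = 1.00), and -0.22 without susceptible replicate 3. The library with the highest Slc17a7 also had the highest mean log2 CPM of the 8 cortical projection neuron markers, 4.76, and that with the lowest Slc17a7 had 0.73. Those markers summed to 43.1 to 297 CPM in susceptible and 44.96 to 96.8 CPM in control mice, with 0 of 8 called and none at 0, and their part was not tested. Elsewhere in the accumbens, the smallest p among stress comparisons belonged to Napb, at 0.28 (SE 0.143) in susceptible and 0.32 (SE 0.132) in resilient mice against controls, neither past the test.

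Imipramine responders in the accumbens had 25 members with lower and 9 with higher values than susceptible mice, with a median of -0.15. Without the library that stood apart the median was -0.04, with 21 lower and 13 higher. Syt4 had the smallest p, at 0.39 (SE 0.154, edgeR adjusted p = 0.428), and 0.06 without that library. In the amygdala the corresponding counts were 25 lower and 9 higher with a median of -0.27, and 25 and 9 with a median of -0.10 without its library. Pclo there was -0.35 with and 0.17 without it. Syt1 had the smallest p, at -0.36 (SE 0.123, edgeR adjusted p = 0.395), and -0.21 (edgeR adjusted p = 0.975) without that library. Responders and non-responders to imipramine differed by a median of -0.17 in the accumbens and -0.13 in the amygdala, and by -0.03 and -0.06 without those libraries. Erc2 in the accumbens, at -0.29 (SE 0.106), and Unc13b in the amygdala, at -0.56 (SE 0.224), had the smallest p in these comparisons, and neither was called. Without the library that stood apart they were at -0.20 and -0.27, and members at an unadjusted p below 0.05 went from 1 to 0 in the accumbens and from 5 to 1 in the amygdala.

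In the amygdala, Syt2 had the smallest p of the members in resilient against control mice. It was at 55.3, 34.1, 22.8 and 29.7 CPM in resilient mice and 12.4, 17.6, 39.2, 11.9 and 10.5 CPM in controls. The groups overlapped through 1 control library. The difference was 0.96 (SE 0.294, edgeR adjusted p = 0.398), and 0.99 (SE 0.345) against susceptible mice. Imipramine responders, chosen after their values were seen, were at 34.0, 41.8 and 36.5 CPM and susceptible mice at 18.3, 18.7 and 16.9 CPM, with no overlap and a difference of 1.07 (edgeR adjusted p = 0.395), and 0.98 (edgeR adjusted p = 0.975) without replicate 2. The 12 striatal projection neuron markers summed to 938 to 3106 CPM in resilient, 1264 to 2342 CPM in imipramine responder, 1063 to 1513 CPM in susceptible and 736 to 1095 CPM in control amygdala. In resilient mice 12 of 12 were at an unadjusted p below 0.05 and 0 were called, none was at 0, and their part was not tested.

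Cplx3 in the amygdala was at 3.51, 2.16 and 3.37 CPM in ketamine responders, 3.99, 2.92 and 3.30 CPM in non-responders and 4.80, 6.31 and 10.5 CPM in susceptible mice. The 5 controls were at 3.88 to 6.18 CPM and overlapped with non-responders and with susceptible mice. Cplx3 was at an unadjusted edgeR p below 0.05 in 5 of the 9 amygdala comparisons and was called in none. Among these were susceptible against control mice and imipramine non-responders against susceptible mice. Both ketamine groups lay below every susceptible library. The differences were -1.23 (SE 0.314, edgeR adjusted p = 0.675) and -1.06 (SE 0.313, edgeR adjusted p = 0.992), opposite in sign to those in the ventral hippocampus. The difference between regions did not pass the test over all 4 regions (edgeR adjusted p = 1.00). That fit of all 99 libraries shared 1 estimate of spread per gene. The SD of log2 CPM of Cplx3 was 1.92 in the accumbens, 0.68 in the ventral hippocampus and 0.48 in the amygdala. Hippocampus and amygdala were not tested against each other alone. In the amygdala, the 8 cortical projection neuron markers summed to 234 to 349 CPM in ketamine responders and 224.5 to 362 CPM in non-responders. They summed to 355 to 440 CPM in susceptible mice and 299 to 529 CPM in controls. Their part in the differences of Cplx3 was not tested.

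In the prefrontal cortex, Snap25 had the smallest p of the members in resilient against control mice. It was at 2883, 2853, 3114 and 2909 CPM in resilient mice and between 2952 and 3681 CPM in the 5 controls, so the groups overlapped. The difference was -0.21 (SE 0.0626, edgeR adjusted p = 0.476). Against susceptible mice, at 3581, 3222 and 3362 CPM, it was -0.20 (SE 0.0709) with no overlap. Of the ketamine comparisons, Erc2 was at -0.22 (SE 0.0761) in responders against susceptible mice and Doc2b at -0.50 (SE 0.143) in responders against non-responders. The 10 oligodendrocyte markers summed to 2213 to 3110 CPM in ketamine responders, 1641 to 2719 CPM in non-responders, 1629 to 1925 CPM in susceptible and 1287 to 1479 CPM in resilient prefrontal cortex. Of these markers 10 of 10 in ketamine responders and 7 of 10 in resilient mice, each against susceptible mice, were at an unadjusted p below 0.05 with 0 called, none was at 0, and their part was not tested. Susceptible minus control had Rims2 as the member with the smallest p, at 0.15 (SE 0.0646). In the ventral hippocampus the corresponding member was Doc2b at 0.23 (SE 0.108), which in responders against non-responders to ketamine was at -0.38 (SE 0.115), and at -0.29 without responder replicate 3. Syt7 there was at -0.16 (SE 0.0740) in resilient against susceptible mice. None of these was called.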

How the data were processed

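RNA sequencing was done on poly-A RNA of 4 brain regions, extracted with TRIzol and read as 50 bp pairs, with 2 mice pooled per library per the labels' protocols. The authors deposited raw read counts per Ensembl gene for 99 libraries, with no normalization. Per the submitters' processing notes, Bowtie2 2.1.0, TopHat2 2.0.9 and HTSeq 0.6.0 were used with genome build NCBIM37; counting settings and annotation release are not given in the sources used here. Symbols were found by exact ID for 32919 of 37991 genes (86.6%) in a later annotation, which also gave exon lengths. Promoters came from RefSeq tables of GRCm38.p6 and were not used as coordinates of the files.

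The counts were tested in R 4.3.3 with edgeR 4.0.16 (TMM scaling, filterByExpr with a minimum count of 10, robust quasi-likelihood F-tests) and adjusted with the Benjamini-Hochberg method over all genes of the fit. Regions were compared in 1 fit of the 19 control libraries (17720 genes), and conditions in 1 fit per region with 7 group means (17517 genes in prefrontal cortex, 17718 in nucleus accumbens, 17758 in ventral hippocampus and 18392 in amygdala). Differences between regions in a condition effect were tested in a fit of all 99 libraries (19024 genes), which also gave the CPM values. Depth was 14459028 to 59187954 counts, and precision is given as SE or SD. Counting noise was not separated from the spread between libraries. Among 132 pairs of same-group libraries 0 were identical.

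Members and gene lists were chosen with earlier results of these data known. All 34 members were to be named, with library values for members called between conditions and for up to 2 per role with the largest regional difference; for other comparisons the member with the smallest p could be given, and up to 4 other release genes. The scripts were tested on simulated data. Alternatives were DESeq2 1.42.0, median-ratio scaling, no count filter, the 5 series of sample numbers as a covariate, regional contrasts averaged over the 7 conditions, and leaving out each library. Leaving out the 1 library that stood apart in a region, or all 3 in the fit of all libraries, was added after seeing the data.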

Additional observations from a re-analysis of the deposited data

Results flagged for a closer look

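Snap25 in the nucleus accumbens of control mice had 1 library far from the other 4, at 1569 CPM against 1228 to 1304 CPM. The gap was 0.776 of the group's range, and chance alone marks about 1 in 20 groups in this way. It was the 1 group marked of 70 tested, no more than chance alone would give.

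The difference between ketamine responders and susceptible mice given saline varied between regions for 3 release genes outside the 34 members, by an F-test in edgeR on the difference itself. The adjusted p was 0.00937 for Slc17a6, 0.0150 for Rims3 and 2.54e-05 for Syt9. Without the 3 libraries that stood apart it was 0.737, 1.00 and 0.0601 in the same order. Their higher values were those of the ventral hippocampus, where 10 of 10 thalamic markers were also called higher (0.619% of all genes). Responder replicate 3 was the highest library there for each of the 3 genes.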

How the results depend on the processing

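Of 1116 alternative counts of calls, 1081 stayed within 1.5 times the reported count or stayed at 0. A count of 0 was the reported one for members in 35 of 36 condition comparisons, so much of this is 0 staying 0. The 1 called condition difference, that of Cplx3, was lost in 5 of 10 alternatives. Of 1659 alternative values of single members, 1601 kept their direction and side of the threshold, 18 lost and 28 gained a call and 12 changed sign. Median-ratio scaling moved the median of all genes by at most 0.0313. In the ventral hippocampus of ketamine responders against susceptible mice, members called were 2 with DESeq2 (Cplx3 and Unc13c), 0 without the count filter (Cplx3 adjusted p = 0.0723), 3 with series of sample numbers as a covariate (Rims2, Cplx3 and Unc13c), 0 without replicate 3, which was left out after seeing the data, and 0 to 4 leaving out single libraries. Other release genes called there were 1 without the filter, 0 without replicate 3 and 0 to 7 leaving out single libraries. Over the 7 conditions there, 1 other gene was called with the series covariate (3 without it and with all libraries), and 0 members and 0 other genes without replicate 3. Without the 3 libraries that stood apart, 0 other release genes differed between regions in this comparison. In the prefrontal cortex of resilient against control mice, the series covariate gave 2 members (Syn2 and Rims1) and leaving out single libraries 0 to 2 members and 0 to 1 other gene. In the amygdala, DESeq2 called 1 other release gene (Syt6) in resilient against control mice. Leaving out single libraries gave 0 to 1 member and 0 to 1 other gene in that comparison and in imipramine responders against non-responders. In the accumbens the last comparison gave 0 to 3 members and 0 to 5 other genes, and imipramine responders against susceptible mice 0 to 1 member.

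Averaged over the 7 conditions, prefrontal cortex and amygdala differed in 38 other release genes (23 in controls), Doc2b was -0.23 in accumbens minus hippocampus (0.16 in controls), Doc2a 0.068 there and Sv2b 0.071 in hippocampus minus amygdala. Prefrontal cortex minus amygdala for Napb was -0.0038 without the filter and -0.012 to 0.037 without single libraries. Accumbens minus amygdala for Cplx3 was -0.035 with the series covariate, and -0.37 to 0.40 without single libraries, the lowest without accumbens control replicate 4 (-0.22 without replicate 5). Accumbens Slc17a7 in susceptible minus control mice was -0.22 without susceptible replicate 3 and up to 3.01 without other libraries. The cause of these changes was not tested. No paired analysis was possible because the labels give no replicate numbers: the series of sample numbers, fitted as the covariate above, hold some groups more than once and others not at all, and are not stated to mark a batch or a pair. Groups of 3 to 5 pooled libraries limit what small differences can be resolved, most of all in accumbens and amygdala.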
